A study of Mus musculus with 62 samples.

Results

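Cells with high and cells with low levels of Upk1b, Plat and Ly6a were compared within a culture of mouse pancreatic cancer cells (line KPC1199-EGFP). The cells were chosen by the measured levels of these 3 genes. Of 62 single-cell libraries, 50 had a spike-in share under 20% of all counts and were ranked. The score of a cell was the mean log2(CPM + 1) of the 3 genes, where CPM are counts scaled to the same total over gene rows in each cell. The 12 highest cells are called high-score, the 12 lowest low-score, and the 26 between them middle. All cells came from 1 untreated adherent culture at passage 9, of C57BL\6 background and labelled with EGFP expression, grown in DMEM with 10% serum. They were trypsinised, captured and amplified on a Fluidigm C1 medium chip and sequenced with Nextera XT libraries. The series' design text gives these cells as a control at the passage injected into mice for a method that reads DNA and RNA of 1 cell. With 1 culture there is 1 sample, so no test was made: every difference below is a description of these cells, and every SD is a spread over cells. The labels do not say whether the line is 1 clone.

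Upk1b encodes a uroplakin of the tetraspanin family, a membrane protein best known from the surface plaques of the bladder lining. Plat encodes tissue plasminogen activator, a secreted protease that turns plasminogen into plasmin. Ly6a encodes Sca-1, a lipid-anchored surface protein used as a marker of progenitor cells in several mouse tissues and known to be induced by interferon.

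The score genes chose the cells, so their values carry no evidence. The score ran from 9.41 to 10.43 in high-score cells, from 3.45 to 9.29 in middle cells and from 0 to 2.90 in low-score cells. The cells just inside and just outside the upper limit stood at 9.41 and 9.29, and those at the lower limit at 2.90 and 3.45, so neither limit fell in a wide gap. In high-score cells Upk1b had a lowest, median and highest level of 275, 820 and 1906 CPM, against 0, 0 and 20.7 CPM in low-score cells. Plat stood at 307, 555 and 1413 CPM in high-score cells and at 0, 0 and 36.5 CPM in low-score cells. Ly6a stood at 779, 2171 and 3807 CPM in high-score cells and at 0, 0 and 414 CPM in low-score cells. Each gene was thus apart between the groups, although Upk1b was above 0 in 3, Plat in 4 and Ly6a in 5 of the 12 low-score cells. No low-score cell held all 3 transcripts, which 15 of the 26 middle cells did. Over the 50 cells, Pearson r was 0.66 for Upk1b with Plat, 0.58 for Upk1b with Ly6a and 0.55 for Plat with Ly6a. Over the middle cells alone the same pairs stood at 0.30, 0.24 and -0.14, and middle cells at 0 for Upk1b could have Ly6a as high as high-score cells did.

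**Figure D1:**
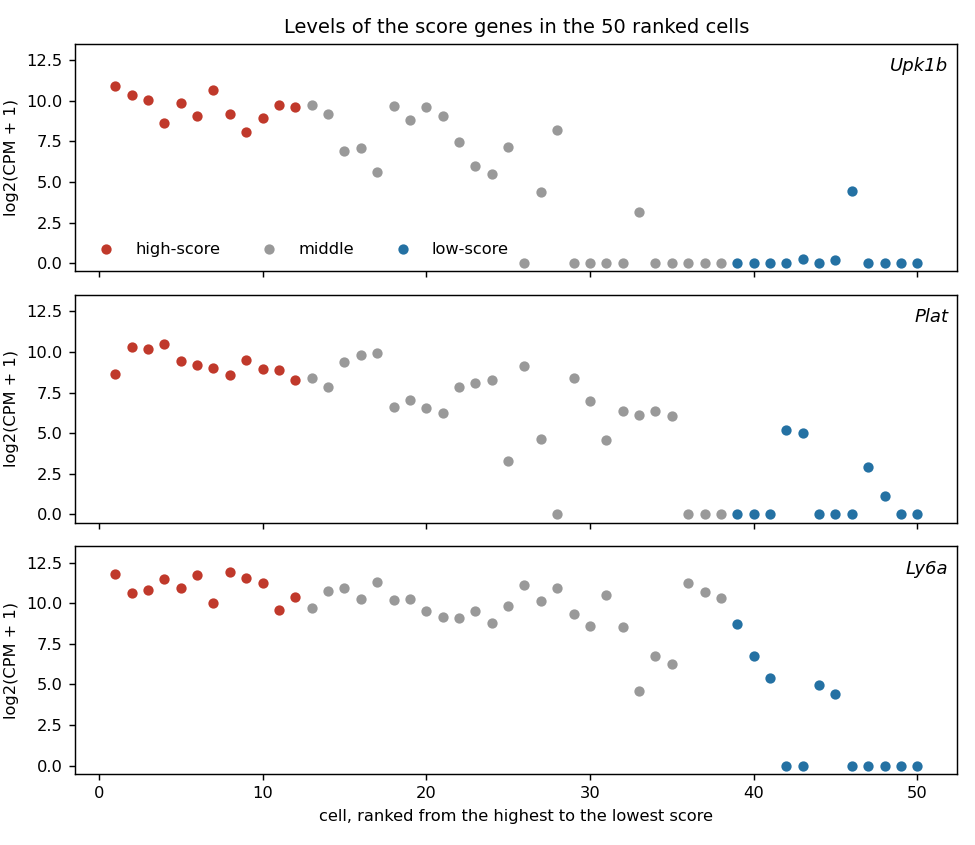
Level of each score gene, as log2(CPM + 1), in the 50 cells ranked by score from left to right; each point is 1 cell and colours give the 12 high-score, 26 middle and 12 low-score cells. Upk1b is at 0 in most of the cells of lowest rank, while Ly6a stays above 0 in all 26 middle cells.

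Some library measures moved with the score and bear on every gene below; their part in the differences was not tested. Depth was alike, with medians of 7049570 gene counts in high-score and 7016190 in low-score cells. The number of genes above 0 was 8250, 9518.5 and 10618 (lowest, median, highest) in high-score cells and 6832, 8516 and 9524 in low-score cells. After thinning each cell to 2000000 counts it was 7703, 8931 and 10006 against 6220, 8016 and 8988. Gene counts per spike-in count, which rise with the RNA a cell yields, were 114, 189 and 437 in high-score and 53.6, 107 and 240 in low-score cells. The groups overlapped on each of these measures. The 8 blocks of 12 consecutive label numbers held 0 to 4 high-score and 1 to 3 low-score cells each.

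Of 12009 other genes above 0 in at least 10 of the 50 cells, 2413 (20.1%) had a mean log2(CPM + 1) at least 1 higher in high-score cells, a 2-fold difference. In the other direction 625 genes (5.20%) were past 2-fold lower. At 4-fold the counts were 540 (4.50%) and 83 (0.691%). The median difference over all tested genes was 0.16, toward the high-score cells. With gene counts per spike-in count regressed out of each gene, 955 genes were past 2-fold higher and 1000 lower. On this log2(CPM + 1) scale the change of genes near 0 is understated. In 6 genes (0.0500%) every high-score cell lay above every low-score cell, and in 0 genes (0.00%) below. Of these 6, C1galt1c1, Ngfrap1, Acsl4 and Slc25a5 lie on chromosome X, Bmp4 on chromosome 14 and Ly6e on chromosome 15.

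**Figure D2:**
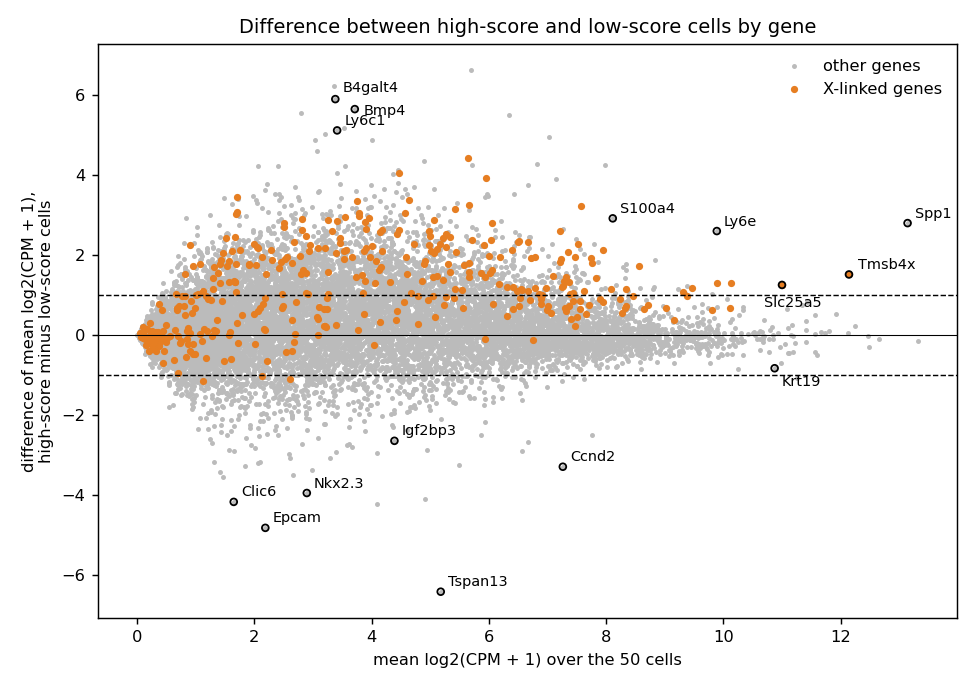
Difference of mean log2(CPM + 1), 12 high-score minus 12 low-score cells, against the mean over the 50 cells, 1 point per tested gene; X-linked genes are orange and dashed lines mark a 2-fold difference. X-linked genes of high level lie above 0 as a group (median 1.04 over all 373), whereas autosomal genes of like level centre near 0.

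The genes that separated the groups best were named by the share of high-low cell pairs in which they differed 1 way, 12 genes per direction, and these values too are a description. The secreted growth factor Bmp4 had a lowest, median and highest level of 13.2, 66.4 and 120 CPM in high-score cells and 0, 0 and 0.356 CPM in low-score cells, so the groups did not overlap. B4galt4, a galactosyltransferase that extends sugar chains, stood at 2.32, 87.2 and 386 CPM against 0, 0 and 14.7 CPM, and 9 of the 12 low-score cells were at 0. Prkar2b, a regulatory subunit of protein kinase A, stood at 21.6, 40.4 and 113 CPM in high-score cells and was above 0 in 2 of 12 low-score cells. These 3 genes were close to on or off between the groups. Ly6e, which like Ly6a encodes a lipid-anchored protein of the Ly6 family, was present in all 24 cells, at 10.81 ± 0.38 on the log2 scale in high-score and 8.21 ± 0.99 in low-score cells (SD, n = 12 cells each).

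Among the 12 leading lower genes the tetraspanin Tspan13 had the largest difference, with 0, 0.0776 and 419 CPM in high-score cells and 109, 376 and 950 CPM in low-score cells. It was above 0 in 6 of 12 high-score cells and in all low-score cells, and its mean log2 level was 6.41 lower. Nkx2.3, a homeobox transcription factor, stood at 0, 0 and 39.2 CPM against 10.4, 27.5 and 78.2 CPM, with 3 of 12 high-score cells above 0. Cyclin D2 (Ccnd2), which drives entry into the cell cycle, stood at 0, 68.4 and 519 CPM in high-score and 100, 481 and 1815 CPM in low-score cells. In each of these genes the groups overlapped. Clic6, of the chloride intracellular channel family, was at 0 in all 12 high-score cells. By a limit of 3 over 12, this allows up to 25% of such cells with a count (not of cells that express the gene). In low-score cells Clic6 stood at 0, 33.6 and 202 CPM. Igf2bp3, an RNA-binding protein, was above 0 in all 24 cells, with medians of 5.85 CPM in high-score and 73.8 CPM in low-score cells. The other 7 leading lower genes (Higd2a, Gm5113, Crip1, Isy1, Nme3, Ptprf and Arf6) differed by -1.05 to -2.79 in mean log2 level.

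**Figure D3:**
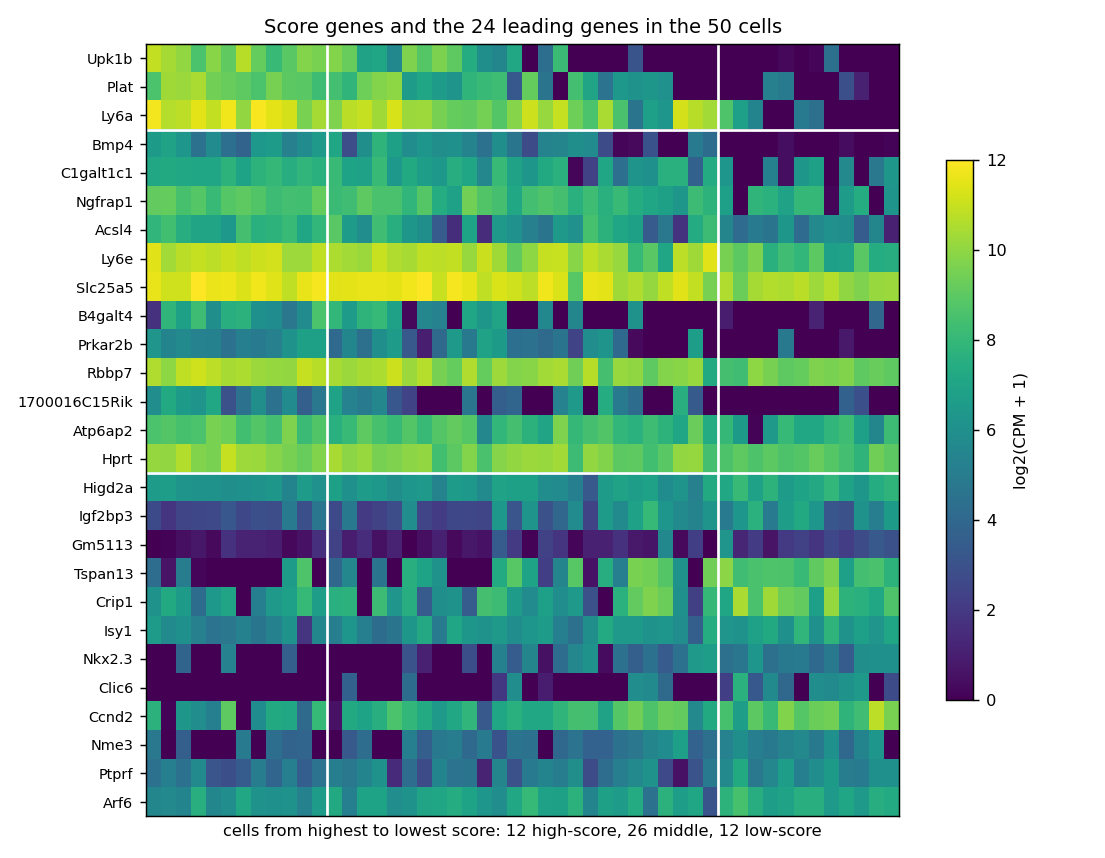
log2(CPM + 1), by colour, of the 3 score genes (top), the 12 leading higher genes (middle block) and the 12 leading lower genes (bottom block) in the 50 cells, ordered by score with white lines between the high-score, middle and low-score cells. Bmp4 and B4galt4 are at or near 0 in most low-score cells, and Tspan13 is near 0 in most high-score cells.

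The stretches before the transcript starts of B4galt4 and Tspan13 are shown because these genes had the largest difference among the leading higher and leading lower genes, a choice made after their values were seen. They are the 250 bases upstream of the start, from RefSeq on GRCm38.p6, at chr16:38742009-38742258 (plus strand) and chr12:36042479-36042728 (minus strand), each 5′ to 3′ and with no motif in capitals because none searched was found. Of the 24 leading genes 17 had an entry in that table.
B4galt4: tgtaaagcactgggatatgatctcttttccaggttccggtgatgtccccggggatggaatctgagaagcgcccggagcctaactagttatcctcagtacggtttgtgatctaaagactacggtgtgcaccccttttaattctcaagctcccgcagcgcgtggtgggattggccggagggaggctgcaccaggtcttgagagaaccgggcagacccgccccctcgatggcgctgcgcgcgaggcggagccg
Tspan13: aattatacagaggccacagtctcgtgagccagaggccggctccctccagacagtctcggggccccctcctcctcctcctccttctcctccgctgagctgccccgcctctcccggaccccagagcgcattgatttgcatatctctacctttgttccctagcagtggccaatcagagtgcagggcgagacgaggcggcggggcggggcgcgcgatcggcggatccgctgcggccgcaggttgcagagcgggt
Motifs were searched on both strands as TGANTCA for AP-1, GGAATG for TEAD, TTCNNNGAA for STAT and TATAAA for the TATA box. They had 0 matches in both stretches, and occurred in 6.75%, 12.6%, 7.02% and 12.4% of 32851 upstream stretches of this length. No match says only that these letters are not in this window.

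X-linked genes were higher in high-score cells as a set, and 7 of the 12 leading higher genes were X-linked against 0 of the 12 lower ones. Of 373 tested X-linked genes 194 (52%) were past 2-fold higher and 3 lower, with a median difference of 1.04. Over the 19 autosomes 19.1% of genes were past 2-fold higher, with 11.4% to 34.1% by chromosome and medians from -0.03 to 0.64. Among genes with a mean log2 level of at least 7, all 57 X-linked genes had a positive difference and 53 one of at least 0.5. Their median was 1.05, while the autosomes' medians ran from -0.25 to 0.32.

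Named X-linked genes were higher as follows, with lowest, median and highest levels over cells. Slc25a5, the mitochondrial ADP/ATP carrier, stood at 1849, 3130 and 4369 CPM in high-score cells and 640, 1270 and 1733 CPM in low-score cells, with no overlap. Rbbp7, a histone-binding protein, had medians of 1510 and 586 CPM. Hprt, the purine salvage enzyme, had medians of 987 and 446 CPM. Acsl4, a long-chain acyl-CoA synthetase, had medians of 203 and 35.6 CPM, and C1galt1c1, a chaperone for a galactosyltransferase of mucin-type sugar chains, 167 and 32.4 CPM. Tmsb4x, which binds actin monomers, had medians of 9859 and 3936 CPM. As the X-linked gene of highest mean level it was left out of the sums below after its values were seen.

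Summed over the other 372 X-linked genes, high-score cells stood at 35287, 41670 and 46727 CPM (lowest, median, highest) and low-score cells at 20312, 22595 and 24861 CPM. The groups were far apart, and with Tmsb4x included they also did not overlap, with medians of 51399 and 26200 CPM. Over the 50 cells the widest gap in the sum lay between 27317 and 31901 CPM, with 20 cells below it and 30 above. The 26 middle cells fell on both sides: 8 below the gap had a median score of 4.79 and 18 above it one of 7.82. The Pearson r of the score with the log2 sum was 0.80 over the 50 cells, which share the sums' depth and scaling, and 0.38 over the middle cells. With the log2 sum regressed out of every gene, 8 of the 12 leading higher and 9 of the 12 leading lower genes were no longer past 2-fold. Ly6e went from 2.60 to 0.53, Bmp4 from 5.65 to 1.25, B4galt4 from 5.90 to 1.76 and Ccnd2 from -3.29 to -1.24. Acsl4 went from 2.81 to 0.38 and Ngfrap1 from 3.23 to 0.80, but these X-linked genes are part of the sum. The score genes fell as well, Upk1b from 9.18 to 2.58, Plat from 8.11 to 3.18 and Ly6a from 8.48 to 2.00. A fall after this step was thus largely built in, since the sum did not overlap between the groups. Because the sum and the score move together, the 2 cannot be told apart in this contrast.

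Transcripts of chromosome Y differed too. Summed over the 5 tested genes (Ddx3y, Eif2s3y, Kdm5d, Uba1y and Uty), high-score cells stood at 0, 75.5 and 184 CPM and low-score cells at 0, 0.127 and 0.815 CPM. No cell lay between 2.77 and 36.5 CPM. Above 10 CPM, a limit set after the values were seen, were 9 of 12 high-score cells (75%, exact Clopper-Pearson 95% interval 42.8% to 94.5%, sampling of cells only), 0 of 12 low-score cells and 9 of 26 middle cells. Of the 30 cells above the X-linked gap 16 were over that limit, and of the 20 below it 2. Eif2s3y, a translation initiation factor subunit, had a median of 41.2 CPM in high-score cells and was above 0 in 1 low-score cell. Xist, the RNA that coats an inactive X chromosome, was near 0 in both groups, at no more than 0.871 CPM in high-score and 7.83 CPM in low-score cells. The chromosome sums were chosen after the data had been seen, and DNA copy number was not analysed here.

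**Figure D4:**
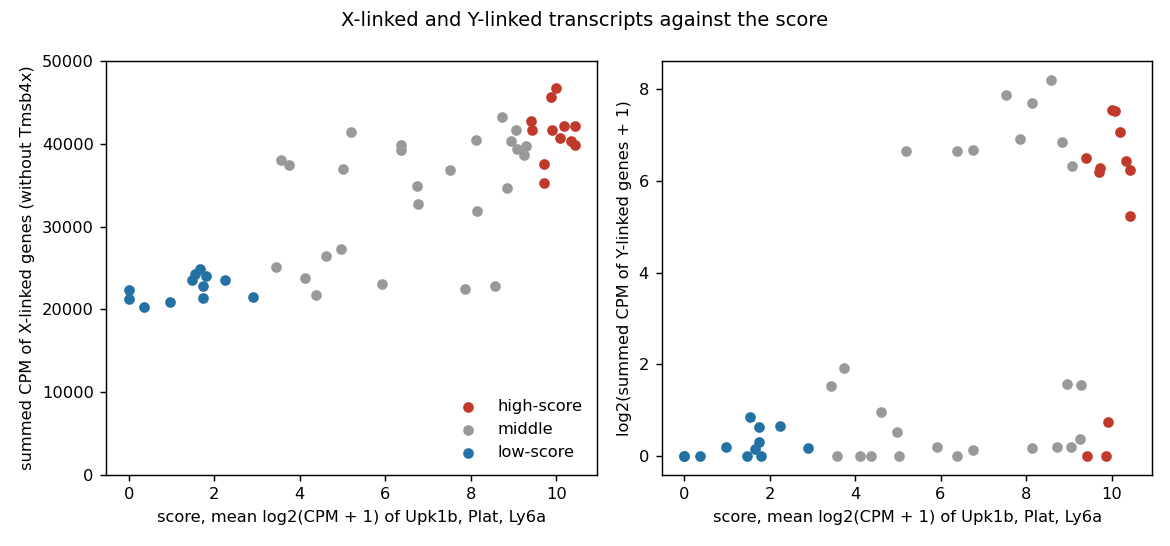
Left, summed CPM of 372 X-linked genes without Tmsb4x, and right, log2 of the summed CPM of 5 Y-linked genes plus 1, against the score, 1 point per cell. For X, all 12 high-score cells lie at 35287 CPM or more and all 12 low-score cells at 24861 CPM or less, and 9 high-score but 0 low-score cells are over 10 CPM for Y.

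Genes next to the score genes were also looked at, a choice made after the values were seen. Up to 5 genes with a row on each side gave 30 neighbours, of which 20 passed the filter, 12 were past 2-fold higher and 0 lower, with a median difference of 1.33. Over all tested genes 20.1% were higher and 5.20% lower, and over all genes of chromosomes 8, 15 and 16 the higher share was 24.6%, 21.9% and 29.7%. Around Plat on chromosome 8 this held for 7 of 8 genes, among them the DNA polymerase gene Polb (5.87 ± 0.79 against 1.75 ± 2.54, a difference of 4.12) and Ikbkb, a kinase of the NF-kappaB pathway (2.38), while the mitochondrial channel gene Vdac3 differed by 0.41. Around Upk1b on chromosome 16 it held for 3 of 6 genes, with B4galt4, the gene beside it, at 5.90 and Poglut1, a glycosyltransferase acting on Notch, at 2.75. Around Ly6a on chromosome 15 it held for 2 of 6, Ly6c1 at 5.12 and Ly6e at 2.60. The Ly6 genes there are close in sequence, and how the authors' counting split reads between them is not given in the sources used here, so the values of Ly6c1 are uncertain. Among the middle cells the neighbours named did not all follow the score. Spearman rho with it was -0.10 for Polb, -0.001 for Ikbkb and 0.44 for Vdac3. It was 0.73 for B4galt4, 0.60 for Poglut1, -0.07 for Ly6c1 and 0.19 for Ly6e.

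Unadjusted counts of the lists that follow are read against the 20.1% of all tested genes past 2-fold higher and the 5.20% lower. Counts are also given with gene counts per spike-in count regressed out, called spike-in adjusted, and with the X-linked sum regressed out, called X adjusted. Adjusted counts are to be read against all genes under the same step. Of the 12009 tested genes, 955 were past 2-fold higher and 1000 lower spike-in adjusted, and 506 and 162 X adjusted. X adjusted counts fall largely by construction, because that sum separates the groups, so they are no check of a list. The log2 spike-in measure also moved with the score (Pearson r 0.52 over the 50 cells), so that step too removes part of the group difference. By it Upk1b went from 9.18 to 6.55 and Plat from 8.11 to 6.13. In the families of the score genes, few or mixed members were past 2-fold. Of 9 tested genes of the Ly6 and uPAR family 2 were past 2-fold higher and 0 lower, namely Ly6c1 and Ly6e, a share near that of all genes, with a family median of 0.40. X adjusted, 0 were past 2-fold. Of 19 tetraspanins 7 were past 2-fold higher and 4 lower (median 0.28), 3 and 4 spike-in adjusted, and 0 and 1 X adjusted. Tspan13 differed by -6.41 and Cd81, a partner of many membrane receptors, by -4.10 in mean log2 level, while the abundant Cd9 differed by 0.06. In the uroplakin and Tm4sf list 4 genes were tested and 2 were higher (2 spike-in adjusted, 1 X adjusted): Tm4sf20 differed by 2.85 and Upk3bl by 2.16, and Tm4sf4 by 0.84. In the plasminogen list 2 of 10 tested genes were higher, the same share as over all genes, and 1 lower. Spike-in adjusted these were 1 and 1, and X adjusted 0 and 0. The urokinase gene Plau stood at medians of 4.73 and 4.31 CPM, and its receptor Plaur at 173 and 92.5 CPM. Without library 44 the 2 higher genes became 1, and over all cells left out in turn the higher count ran from 1 to 3. Tissue factor (F3), which starts blood clotting, differed by 1.57, the scavenger receptor Lrp1, which clears plasminogen activators, by -2.57, and the plasminogen-binding Anxa2 by -0.01. Plasminogen itself (Plg) was at 0 in all 50 cells.

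Epithelial and mesenchymal genes gave a mixed picture. Of 20 tested epithelial genes 3 were past 2-fold higher (Cldn3, Ocln and Krt7) and 4 lower (Epcam, Cldn7, Elf3 and Muc1), with a median of -0.36. Spike-in adjusted these were 2 and 3, and X adjusted 0 and 2. Without library 47 the 4 lower genes became 2. With each cell left out in turn, 2 to 3 were higher and 2 to 5 lower. The adhesion molecule Epcam had a median of 0 CPM and 2 of 12 cells above 0 in the high-score group, against 103 CPM and 9 of 12 in the low-score group. The epithelial transcription factor Elf3 differed by -2.51. The tight junction gene Cldn3 went the other way, with medians of 203 CPM in high-score and 52.3 CPM in low-score cells, so epithelial genes lay on both sides. Of 17 mesenchymal genes 7 were past 2-fold higher and 0 lower, but this was 4 and 0 spike-in adjusted and 0 and 0 X adjusted. The list's median was 0.32, Vim differed by -0.07, and without library 29, a high-score cell, the 7 became 4. Over all cells left out in turn the higher count ran from 4 to 8. The calcium-binding protein gene S100a4 had medians of 666 and 124 CPM, and the transcription factor gene Twist2 was above 0 in 10 high-score cells and 1 low-score cell.

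Duct markers and genes of regenerating epithelium were also mixed. Of 10 tested duct markers 5 were past 2-fold higher and 2 lower, against 20.1% and 5.20% of all genes. Spike-in adjusted these were 3 and 1, and X adjusted 0 and 1. Osteopontin (Spp1), a secreted matrix protein, stood at 8680, 21690 and 41136 CPM in high-score and 147, 4594 and 27958 CPM in low-score cells, a wide overlap. The duct keratin gene Krt19 was present in all 24 cells and differed by -0.83. Prom1, a membrane protein marking ducts and progenitors, was above 0 in 10 high-score and 3 low-score cells. In the list of regenerative epithelium, which holds Ly6a, 5 of 19 genes were higher and 3 lower, with a median of 0.06 (2 and 1 spike-in adjusted, 1 and 1 X adjusted). Without library 14 the 5 became 3, and without library 29 the 3 became 1. Leaving out each cell in turn gave 3 to 6 higher and 1 to 4 lower.

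Proliferation and sterol lists had many members past 2-fold higher and 0 lower, against 20.1% and 5.20% of all genes. In the S phase list 18 of 35 genes were higher and 0 lower (median 1.02), and in the G2 and mitosis list 20 of 35 and 0 (median 1.13). Pola1, a DNA polymerase subunit gene on chromosome X, differed by 2.89, and Prc1, needed for cell division, by 2.65, while the abundant Pcna differed by 0.07. With gene counts per spike-in count regressed out, 1 S phase gene was higher (median 0.18), and 0 of the G2 and mitosis genes were higher and 1 lower (median -0.25). X adjusted, 2 S phase and 7 G2 and mitosis genes were higher. Over all 12009 genes the counts were 955 higher and 1000 lower with the spike-in measure regressed out, and 506 and 162 X adjusted. Single cells also moved these counts: without library 17, a low-score cell, they were 7 and 13, without library 32, also low-score, the S phase count was 9, and without library 29 the mitosis count was 31. In the sterol synthesis list 15 of 24 genes were past 2-fold higher and 0 lower (median 1.25), and 6 and 0 with the spike-in measure regressed out (median 0.78). X adjusted the counts were 6 and 0 (median 0.75). The X-linked Nsdhl, an enzyme of cholesterol synthesis, stood at 45.5, 218 and 440 CPM in high-score cells against 0, 87.3 and 190 CPM in low-score cells, an overlap, and differed by 2.35 in mean log2 level. The most abundant gene of the list, Fdps, differed by 0.91.

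**Figure D5:**
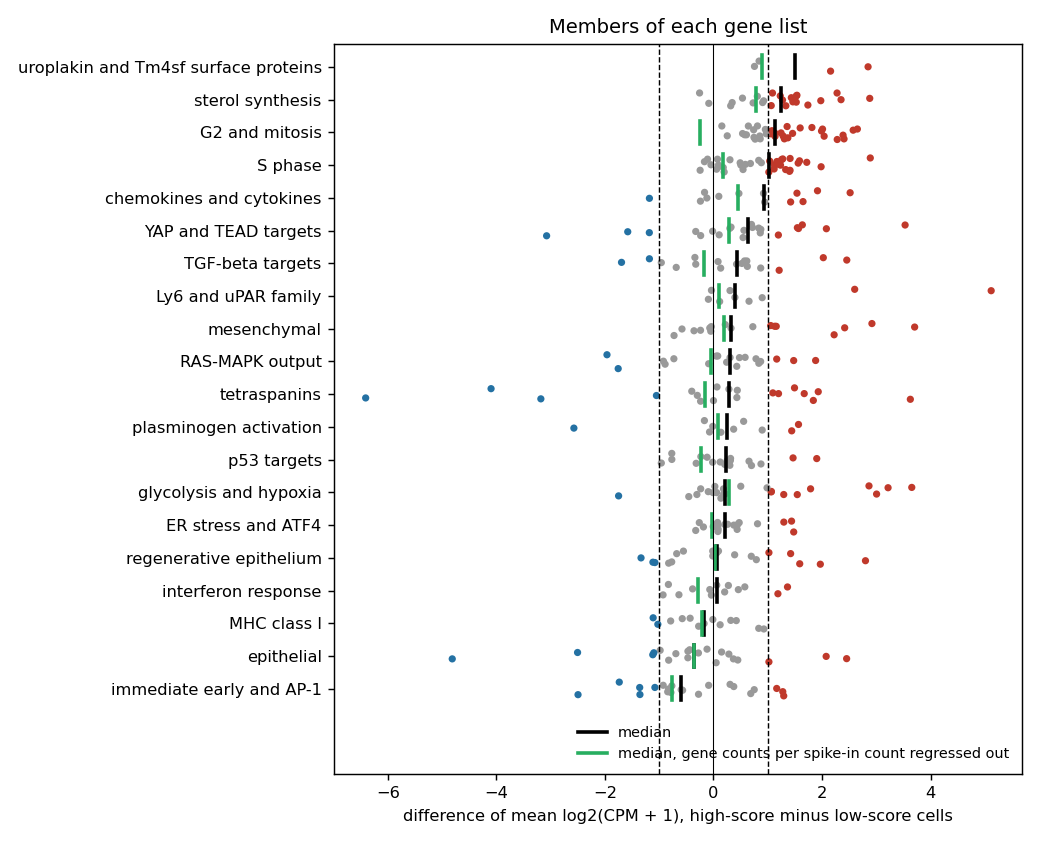
Difference of mean log2(CPM + 1), 12 high-score minus 12 low-score cells, for each tested member of 20 gene lists; points past 2-fold are red (higher) or blue (lower), black bars are list medians and green bars the medians with gene counts per spike-in count regressed out. The medians of the S phase and G2 and mitosis lists move from 1.02 and 1.13 to 0.18 and -0.25, and that of sterol synthesis from 1.25 to 0.78.

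Signalling and stress lists mostly held genes in both directions. Of 22 YAP and TEAD targets 6 were past 2-fold higher and 3 lower (median 0.63), against 20.1% and 5.20% of all genes. Spike-in adjusted these were 5 and 3, and X adjusted 2 and 1. The matricellular genes Cyr61 and Ctgf, both textbook targets, differed by 3.53 and by -3.08, with 9 of 12 low-score cells above 0 for each. Immediate early genes had a median of -0.60, with 3 of 21 higher and 5 lower. Spike-in adjusted, those past 2-fold were all lower, with 0 higher and 9 lower, with detected genes regressed out 0 and 10, and X adjusted 0 and 4. Over all 12009 genes the same steps gave 955 higher and 1000 lower, 1100 and 1027, and 506 and 162. The AP-1 gene Fos had medians of 198 and 631 CPM. Without library 17 the 5 lower genes became 8, and without library 42 or 46 the 3 higher genes became 1 or 5. Of 13 tested chemokines and cytokines 5 were higher and 1, Tgfb1, lower, and the latter fell short of 2-fold without library 24, 29, 30, 40 or 49. Spike-in adjusted these were 3 and 1, and X adjusted 1 and 0. The neutrophil attractant gene Cxcl1 differed by 2.52. Of 23 glycolysis and hypoxia genes 9 were higher and 1 lower (7 and 1 spike-in adjusted, 5 and 0 X adjusted), led by the oxygen sensor gene Egln3 with medians of 79.3 and 0.29 CPM, while Gapdh differed by -0.31.

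Interferon response genes were listed because interferon induces Ly6a, and a part of interferon in the score was not tested. Of 13 tested, 2 were past 2-fold higher (Ifi27 by 1.36 and Ifit2 by 1.19) and 0 lower, with a median of 0.06. The 15.4% higher is near the 20.1% of all genes for so few members. Of 13 MHC class I genes 0 were higher and 2 lower (median -0.17). For RAS-MAPK output 3 of 19 were higher and 2 lower, for TGF-beta targets 3 and 2 of 17, for p53 targets 2 and 0 of 18, and for ER stress and ATF4 genes 3 and 0 of 19. The higher shares of all these lists lay below the 20.1% of all genes. The lower shares were 15.4% for MHC class I, 11.8% for TGF-beta targets and 10.5% for RAS-MAPK output, against 5.20% of all genes. Each of these rests on 2 genes, and for interferon, p53 and ER stress genes the lower share was 0. Spike-in adjusted, p53 targets went to 0 higher and 2 lower, RAS-MAPK output to 1 and 4 and TGF-beta targets to 2 and 4. By the same step interferon genes went to 1 and 1, MHC class I to 0 and 1 and ER stress genes to 1 and 0. All 12009 genes shifted as well, from 2413 higher and 625 lower to 955 and 1000. X adjusted, all 6 lists had 0 and 0, against 506 and 162 of all genes. Leaving out 1 cell at a time gave 1 to 3 higher and 0 to 1 lower interferon genes, 0 to 1 and 0 to 2 MHC class I genes, 2 to 5 and 2 to 4 RAS-MAPK genes, 2 to 4 and 1 to 4 TGF-beta genes, and 2 to 4 and 0 to 3 p53 genes, so these small counts rest on single cells. Etv5 and Etv4, related transcription factor genes downstream of RAS-MAPK, differed by -1.96 and 1.88. Id2, a BMP and TGF-beta responsive inhibitor of transcription factors, differed by 2.46. The p53 target Mdm2 differed by 1.90 and the amino acid transporter gene Slc7a5 by 1.48.

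Markers of other cell types were mixed, with some at 0 in all cells and others well above it. The fibroblast markers Col1a2 and Dcn, the endothelial markers Pecam1 and Cdh5, the immune markers Cd3e and Lyz2, and the mesothelial markers Wt1 and Upk3b were at 0 in all 50 cells. Summed fibroblast markers stayed under 1 CPM in both groups, with 0 to 0.71 CPM in high-score and 0 to 0.868 CPM in low-score cells, and 7 of 10 with a row were at 0 in all cells. Summed immune markers ran from 0 to 27.7 and 0 to 33.5 CPM, with 6 of 11 at 0. Summed endothelial markers ran from 0 to 91.5 and 0.136 to 215 CPM, with 5 of 11 at 0. The endothelial markers Egfl7 and Sox17 were each above 0 in 20 of the 50 cells and differed by -2.10 and 1.03. Mesothelial markers reached 3730 and 8787 CPM through Msln and Lgals2, which were above 0 in 46 and 49 of the 50 cells and differed by 0.06 and 0.70. Urothelial markers, the list nearest to Upk1b, ran from 51.3 to 669 and 47.2 to 1344 CPM, with Krt20 at 0.28 and Pparg at -0.77. Of 15 listed acinar markers 7 had a row, 3 of them at 0 in all cells, and only 2 were tested. Both were past 2-fold higher, against 20.1% of all genes, which is too few to read as a trend. They were Prss2 (above 0 in 7 against 3 cells) and Cela1 (4 against 1), with list sums up to 97.4 and 27.8 CPM. Cela1 had a median of 0 CPM in both groups and fell short of 2-fold without some 1 cell. The islet sums reached 2.12 and 72.1 CPM.

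The 26 middle cells were in neither group, though they shared the culture and the score genes. There Spearman rho with the score was positive for 12 of the 12 leading higher genes (median 0.30) and 3 of the 12 leading lower genes (median -0.15). With the X-linked sum in place of the score the medians were 0.42 and -0.19, and 7 of the 12 higher genes are part of that sum. In these cells the score itself had a rho of 0.43 with the sum and 0.41 with gene counts per spike-in count. These measures were thus not told apart here. The rho values below are again with the score. Over all tested genes it was positive for 56.6%, over those past 2-fold higher for 66.8% (median 0.10) and over those past 2-fold lower for 45.8% (median -0.02). Past 4-fold it was positive for 74.1% of the higher and 26.5% of the lower genes. Bmp4 had a rho of 0.68 and B4galt4 one of 0.73. Among the highest values were those of Stau1 (0.78), Prom1 (0.77), St3gal6 (0.76) and Anxa13 (0.74), and the lowest those of Cdk14 (-0.80) and Nkx2.3 (-0.77), followed by Ubp1, Tmem107 and Vkorc1. St3gal6, a sialyltransferase, had medians of 701 and 187 CPM in high-score and low-score cells, and Anxa13, a membrane-binding annexin, 535 and 242 CPM. Ly6c1 stood at -0.07 and Spp1 at -0.01 among the middle cells, whereas Slc25a5 stood at 0.59 and Igf2bp3 at -0.61.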

How the data were processed

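The deposited table holds the authors' estimated counts per gene; the submitters' processing notes name kallisto and mm9. Version, annotation and strand setting were not given in the sources used here. The table had 19177 rows, of which 65 were spike-ins and 19112 genes. Among symbols, 17942 matched RefSeq as given, 1092 after restoring those altered by table software, and 78 did not. RefSeq gave chromosomes and the order of neighbours. 0 columns of other samples were present.

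Library sizes were sums over gene rows only. Values were taken as log2(CPM + 1), that is with a pseudocount of 1, and left unrounded except for thinning. Genes above 0 in at least 10 of 50 cells were compared as differences of group means. No count model was fitted and no p-value computed, since cells of 1 culture are not replicates. No doublet caller was run. Regressions took a linear term per gene over the 50 cells. Intervals for shares are exact Clopper-Pearson at 95%, apart from the 25% limit given for Clic6, which is 3 over 12.

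The members and lists (20 programs, 8 cell types) were chosen with earlier results of these data known. Named genes were the score genes, the 12 per direction with the largest share of cell pairs differing that way among genes past 2-fold, 2 per list by difference and 1 by level, 2 per cell type found in most cells, and the 5 at each end of rho in middle cells. Not every gene this rule takes is reported here. Any other gene named was chosen after its values were seen, as were the chromosome sums, their limits, the neighbours and the promoters shown. Alternatives changed the pseudocount, the filter, the scaling, the group size, the score genes, the threshold, and left out each cell. The computation was tested on simulated data. Python 3.11.15, numpy 2.4.6, pandas 2.3.3, scipy 1.17.1 and matplotlib 3.10.9 were used.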

Additional observations from a re-analysis of the deposited data

Results flagged for a closer look

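Among the 12 libraries left out of the ranking for a spike-in share of 20% or more, library 56 had Upk1b at 10.03 and library 43 at 8.84 on the log2(CPM + 1) scale, a signal in data outside the comparison. Their scores were 5.87 and 7.94 and their spike-in shares 22.3% and 71.1%. The other 10 were at 0 for Upk1b.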

How the results depend on the processing

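The 2413 genes past 2-fold higher and 625 lower became 3865 and 1047 with a pseudocount of 0.1, 516 and 146 with 10, and 540 and 83 at a 4-fold threshold. They became 1100 and 1027 with detected genes regressed out, 955 and 1000 with gene counts per spike-in count regressed out, and 506 and 162 with the X-linked level regressed out, the last chosen after seeing the data. The lower count was 1108 with 8 cells per group and 403 with 16. Leaving out each cell gave 2218 to 2614 higher and 588 to 724 lower. Higher genes were 79.4% of those past 2-fold, 69.4% relative to the all-gene median of 0.16, 51.7% with detected genes and 48.8% with the spike-in measure regressed out, and 68.8% with 8 cells per group. With the X-linked level regressed out, 51 of the 69 named genes past 2-fold were no longer past it, against 15 with the spike-in measure and 12 with detected genes regressed out. Signs turned for Slc25a5 (-0.093), Hprt (-0.18), Crip1 (0.35), Twist2 (-0.075), Ltbp1 (-0.27), Sox17 (-0.38) and Cdk14 (0.22), and, among genes not past 2-fold, among others for Stau1 (-0.66), Vkorc1 (0.55), Tmem107 (0.22), Id1 (-0.39) and Cd47 (-0.12), and without Plat in the score for H2-M3 (0.16). Slc25a5 and Hprt are part of the X-linked sum, which separates the groups, so losses with it regressed out are largely built in. The cause was not tested. Of these 69 genes, 8 fell short without some 1 cell: Higd2a, Ifi27, Ifit2, H2-T10, H2-M3, Sox17, Cela1 and Cdk14. No paired analysis was possible because all cells form 1 group and no test was made. With 1 culture, none of this speaks of other cultures, and a transcript at 0 may be present below detection.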
